A study of Mus musculus with 2 samples.

Results

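The genes described here are the 3 mouse genes of the microRNA miR-7 (Mir7-1, Mir7-2 and Mir7b) and Mir375, the single gene of miR-375. They were chosen by symbol in the M21 gene annotation, as markers of endocrine and neurosecretory cells, and all 4 were found among the 2202 miRNA genes of the count tables. Female mice of the strain labelled 5xFAD/CAST, 8 to 10 months old, gave hippocampal RNA, of which the fraction under 30 nt was sequenced. There was 1 group of 2 biological replicates, which share a donor entry in the labels, and no control genotype, treatment, second age or second tissue. The 5xFAD line is a transgenic model of Alzheimer's disease whose transgenes are driven mainly in neurons by a Thy1 promoter, and CAST usually names an inbred strain of the castaneus subspecies. The labels give the strain name alone, with no genotype for each animal and no statement of whether tissue was pooled.

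MicroRNAs guide Argonaute proteins to messenger RNAs that pair with the seed, the bases near the 5′ end, and so lower the output of those messages. miR-7 is concentrated in pancreatic islets, the pituitary and neurosecretory neurons of the hypothalamus, where it restrains hormone secretion and growth signalling. Its supply in neurons is set in part by long RNAs: the circular RNA Cdr1as binds miR-7 at many sites, the long non-coding RNA Cyrano directs miR-7 decay, and miR-671 slices Cdr1as. miR-375 is abundant in islet and pituitary cells, limits insulin release and is required for a normal endocrine cell mass. It is read mainly from the 3′ arm of its hairpin.

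The mature sequences show which reads the miR-7 genes can and cannot tell apart, and are shown for that reason. They come from RefSeq for GRCm38.p6, whose hairpin positions matched the M21 genes exactly for all 4 members. Each is written 5′ to 3′ with the seed (bases 2 to 8) in capitals.
miR-7a-5p, from Mir7-1 and Mir7-2: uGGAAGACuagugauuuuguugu
miR-7b-5p, from Mir7b: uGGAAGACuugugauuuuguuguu
miR-7a-1-3p, from Mir7-1: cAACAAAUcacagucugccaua
miR-7a-2-3p, from Mir7-2: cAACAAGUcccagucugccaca
miR-7b-3p, from Mir7b: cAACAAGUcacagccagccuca
miR-375-5p, from Mir375: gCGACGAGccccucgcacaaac
The 5p arms of the 3 miR-7 genes had the same seed, GGAAGAC, and no other gene in the RefSeq table had it. Mir7-1 and Mir7-2 gave an identical 5p arm of 23 bases. The 5p arm of Mir7b differed from it at 1 of 23 positions, by A10U, counted from the 5′ end of miR-7a-5p, and had 1 further base at its 3′ end. The 3p arms differed more: by A7G, A10C and U21C between miR-7a-1-3p and miR-7a-2-3p, and at 5 and 4 of 22 positions between each of these and miR-7b-3p. The seeds of the 3p arms were thus shared by Mir7-2 and Mir7b but not by Mir7-1. The seed of miR-375-5p was found in no other gene of the table.

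The hairpins place these arms in their precursors and show how far the identity of the copies extends. Capitals mark the 5p arm.
Mir7-1: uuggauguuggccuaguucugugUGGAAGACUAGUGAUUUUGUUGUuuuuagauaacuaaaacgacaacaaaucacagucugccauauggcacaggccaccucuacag
Mir7-2: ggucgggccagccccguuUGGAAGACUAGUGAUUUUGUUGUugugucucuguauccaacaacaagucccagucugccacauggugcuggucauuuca
Mir7b: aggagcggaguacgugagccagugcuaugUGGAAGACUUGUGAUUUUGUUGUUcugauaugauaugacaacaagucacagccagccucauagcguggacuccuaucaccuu
Mir375: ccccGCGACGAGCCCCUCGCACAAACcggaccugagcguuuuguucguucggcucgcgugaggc
The longest stretch that Mir7-1 and Mir7-2 had in common was 24 bases, the 5p arm with the base after it. Any full-length miR-7a-5p read without further bases therefore matches both genes equally, and only reads that run past this stretch, or that come from the 3p arm or the loop, differ between them. Mir7b had at most 14 bases in a row in common with either copy, and among 1005 hairpins the nearest match of miR-7b-5p outside its own gene had 1 mismatch, in Mir7-1 and in Mir7-2. The 5p arm of Mir375, miR-375-5p, had at least 8 mismatches to every other hairpin, and the 3p arm, from which this miRNA is mainly read, was not compared. An arm held exactly by another hairpin was not rare: it occurred in 92 of the 954 genes of the tables with sequences in RefSeq (9.64%).

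The 4 genes lie on different chromosomes of mm10, and none has another annotated miRNA gene within 10000 bp. Mir7-1 (ENSMUSG00000065434.1, chr13:58392779-58392886, minus strand) lies in an intron of Hnrnpk, on the same strand. Hnrnpk encodes a widely expressed RNA-binding protein. Mir7-2 (ENSMUSG00000065609.1, chr7:78888277-78888373, plus strand) lies outside other genes, 7480 bp before Aen. Mir7b (ENSMUSG00000065491.1, chr17:56242988-56243098, plus strand) also lies outside other genes, 182 bp after the end of the long intergenic non-coding gene AC026385.1 on its strand. Mir375 (ENSMUSG00000065616.3, chr1:74900658-74900721, minus strand) lies between Cryba2, a lens crystallin gene 7514 bp away, and Cfap65, a gene of the ciliary and flagellar apparatus 1349 bp away.

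All 4 genes were detected in both libraries, and Mir7b was the most abundant. The libraries held 9962659 and 12761689 reads in replicates 1 and 2, of which 3135960 and 4377622 were assigned to miRNA genes on the sense strand. Levels are given as CPM, the counts of a gene for every 1000000 of these assigned sense counts, with exact Clopper-Pearson 95% intervals for single libraries that cover counting error only. The limit that a count of 0 allows was 0.957 CPM for replicate 1 and 0.685 CPM for replicate 2. The tables list multimapping reads in a summary line of their own, with 36.3% and 41.7% of all reads, and do not record which genes these reads match. Each of the 4 genes had 0 counts on the opposite strand in both libraries.

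Mir7b had 5849 counts in replicate 1 and 7351 in replicate 2. Its level was 1865 CPM (1818 to 1914) in replicate 1 and 1679 CPM (1641 to 1718) in replicate 2, with a mean of 1772 ± 131 CPM (SD, n = 2). It thus stood at rank 66 and rank 69 of 2202 genes, with the intervals of the libraries apart but close. Mir375 had 2800 and 2364 counts. Its level was 893 CPM (860 to 927) in replicate 1 and 540 CPM (518 to 562) in replicate 2, or 716 ± 250 CPM (SD, n = 2). Replicate 1 was clearly the higher library for Mir375, which moved from rank 98 there to rank 120 in replicate 2.

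Mir7-2 had 367 and 496 counts. Its level was 117 CPM (105 to 130) in replicate 1 and 113 CPM (104 to 124) in replicate 2, or 115 ± 2.63 CPM (SD, n = 2). The intervals of the libraries overlapped almost completely, at ranks 192 and 190. Mir7-1 had 217 and 265 counts. Its level was 69.2 CPM (60.3 to 79.0) in replicate 1 and 60.5 CPM (53.5 to 68.3) in replicate 2, or 64.9 ± 6.13 CPM (SD, n = 2), with overlapping intervals and ranks 216 and 225. The order Mir7b, Mir375, Mir7-2, Mir7-1 was the same in both libraries, and in each library the interval of every gene was separate from that of the next.

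**Figure D1:**
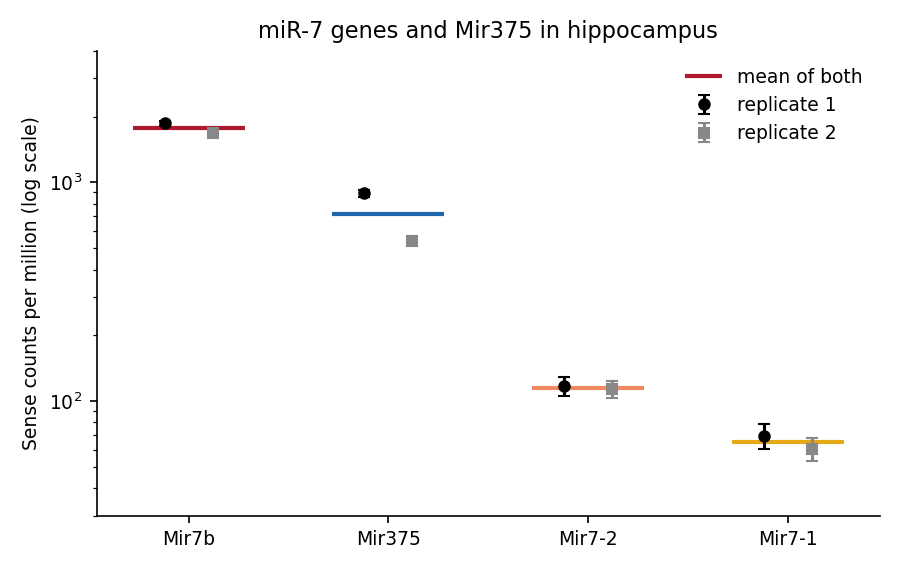
Sense CPM of Mir7b, Mir375, Mir7-2 and Mir7-1 on a log axis, with circles for replicate 1, squares for replicate 2, bars for exact 95% counting intervals and coloured lines for the mean of both. The order of the genes is the same in both libraries, and Mir375 has the widest gap between them, at 893 and 540 CPM.

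A miRNA read spans a whole mature molecule, so these levels were not divided by the length of the gene. Divided by the annotated length, the order was the same, at 1597, 1119, 119 and 60.1 CPM per 100 bp for Mir7b, Mir375, Mir7-2 and Mir7-1. The genes nearest to each member in level, by the distance of log2(CPM + 1) over both libraries, were Mir185, Mir138-2 and Mir1249 for Mir7b, at distances of 0.10, 0.14 and 0.18. For Mir375 they were Mir101b, Mir425 and Mir298, at 0.24, 0.26 and 0.44. Mir214, Mir210 and Mir490 were nearest to Mir7-2, at 0.11, 0.11 and 0.19, and Mir26a-2, Mir29b-1 and Mir211 to Mir7-1, at 0.19, 0.20 and 0.29. Mir138-2, one of the copies of a miRNA that limits dendritic spine size, was at 1652 ± 128 CPM, near Mir7b. Likeness over 2 libraries describes level alone. For genes with further copies, such as Mir138-2, reads that match more than 1 copy may be left out of the counts.

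**Figure D2:**
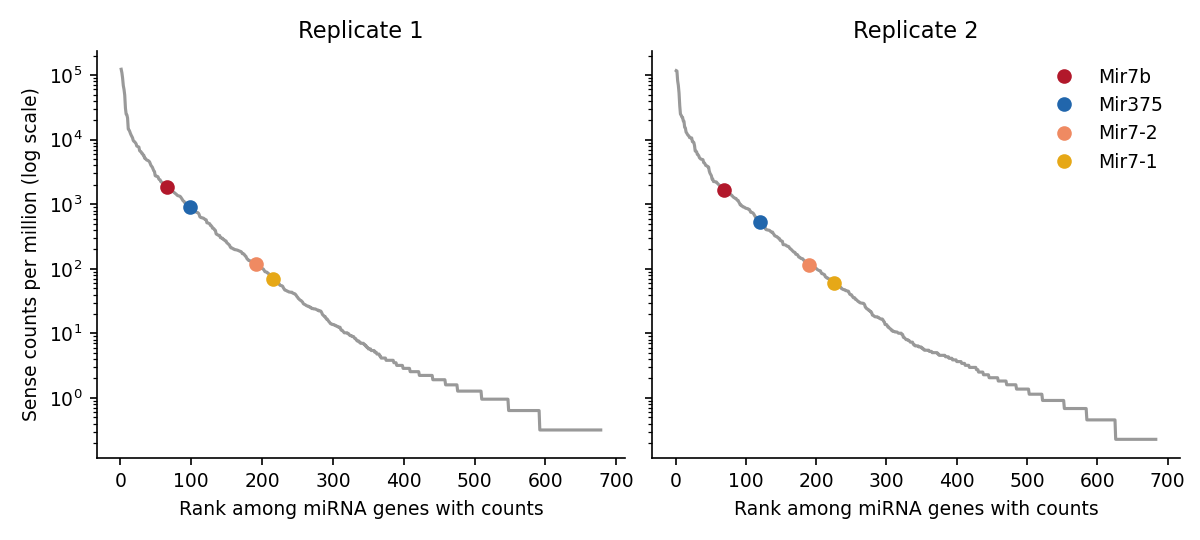
Sense CPM on a log axis against rank for all miRNA genes with counts, with 1 panel for each library and the 4 members as coloured points. Mir7b and Mir375 lie between ranks 66 and 120, and Mir7-2 and Mir7-1 between ranks 190 and 225.

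Within the miR-7 family, nearly all assigned reads belonged to Mir7b. The 3 genes together had 6433 and 8112 counts, or 2051 and 1853 CPM (1952 ± 140, SD, n = 2). Mir7b supplied 90.9% of them in replicate 1 (exact 95% interval 90.2% to 91.6%) and 90.6% in replicate 2 (90.0% to 91.2%), so that the share of Mir7b did not differ between the libraries beyond its counting interval. In assigned counts Mir7b was 10.0-fold and 9.66-fold above the sum of Mir7-1 and Mir7-2, a log2 ratio of 3.30 ± 0.037 (SD, n = 2). The sum of the 2 copies of miR-7a was 186 CPM in replicate 1 and 174 CPM in replicate 2. These ratios are of the gene counts as deposited. The reads of the 23-base arm that Mir7-1 and Mir7-2 have in common match both genes, and the tables list multimapping reads apart from the gene counts. Where such reads were set apart, the counts of Mir7-1 and Mir7-2 leave them out, and the share and fold of Mir7b may be overstated. The sources used here do not give the rule that was used, and the share of miR-7a among the multimapping reads was not tested. The level of miR-7a relative to miR-7b is therefore uncertain, as is that of each copy.

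Of the reads assigned to either copy of miR-7a, Mir7-2 held the larger share in both libraries. Its share was 62.8% in replicate 1 (exact 95% interval 58.8% to 66.8%) and 65.2% in replicate 2 (61.7% to 68.6%), or 64.0% ± 1.65 (SD, n = 2). Both intervals lie above an equal split, and they overlap each other. Mir7-2 was thus 1.69-fold and 1.87-fold above Mir7-1. The intergenic copy had more assigned reads than the copy in the Hnrnpk intron, and whether this follows the amount of each precursor was not tested.

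Between the libraries, 2 of the 4 genes differed beyond counting error, both with more in replicate 1. The 2 counts of each gene were compared with an exact binomial test, two-sided, with Benjamini-Hochberg adjustment over the 459 genes with at least 10 counts in either library. This test compares 2 libraries of 1 group, not conditions, and takes counting error alone as its null. It called 58.4% of all genes tested, with 25.5% higher in replicate 1 and 32.9% higher in replicate 2, so a call here is common. Mir375 was 1.65-fold higher in replicate 1 (95% interval 1.56 to 1.75, log2 ratio 0.73, exact binomial test, adjusted p = 8.54e-72). Mir7b was 1.11-fold higher there (1.07 to 1.15, log2 ratio 0.15, exact binomial test, adjusted p = 7.39e-09). The call of Mir7b ended when all reads of the tables were taken as library size (log2 ratio 0.027, exact binomial test, adjusted p = 0.364, against a range of 1.35e-15 to 0.364 over its alternatives). Mir7-1 had a ratio of 1.14 (0.951 to 1.37, exact binomial test, adjusted p = 0.213) and Mir7-2 a ratio of 1.03 (0.900 to 1.18, exact binomial test, adjusted p = 0.732), neither past the threshold of 0.05. With the fewer reads of these genes, a difference of the size of that of Mir7b lies within both intervals.

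Set against all genes, the 3 miR-7 genes differed little between the libraries, while Mir375 lay above the median. The median absolute log2 ratio of the 454 tested genes with counts in both libraries was 0.43, with quartiles of 0.19 and 0.94. The absolute log2 ratio of Mir7b (0.15) and of Mir7-2 (0.047) lay below the lower quartile, and that of Mir7-1 (0.19) lay just above it. Mir375 stood at place 145 of 454 by size of ratio, counted from the widest. Over all genes 117 were called higher in replicate 1 and 151 in replicate 2, so that 43.7% of calls were higher in replicate 1. With all reads as library size this share was 32.5% and the median log2 ratio of the tested genes moved from -0.097 to -0.22.

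Markers of epithelium and of choroid plexus also stood higher in replicate 1, beside Mir375. The miR-200 family, which maintains epithelial identity and is expressed in pituitary and islets, summed to 434 CPM in replicate 1 and to 119 in the other library. All 5 of its genes passed the test with more in replicate 1, beside 25.5% of all tested genes. They were led by Mir200c at 185 and 29.7 CPM (log2 ratio 2.64, exact binomial test, adjusted p = 5.11e-105), Mir429 at 141 and 35.6 CPM and Mir200b at 63.1 and 48.2 CPM. The cluster of Mir183, Mir182 and Mir96, which is expressed in sensory organs, the pineal gland and islets, summed to 367 and 82.5 CPM, and 3 of 3 genes passed with more in replicate 1. Mir183 led it at 270 and 45.5 CPM, followed by Mir182 at 89.9 and 35.6 CPM and Mir96 at 7.33 and 1.37 CPM.

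The choroid plexus and ependyma list summed to 3072 and 1165 CPM, and 4 of its 5 tested genes passed with more in replicate 1. It was led by Mir34c, a miRNA of ciliated cells, at 1747 and 292 CPM, by Mir204, abundant in choroid plexus, at 1148 and 744 CPM, and by Mir211 at 79.7 and 69.9 CPM, which did not pass (exact binomial test, adjusted p = 0.191). Mir449b had 0 counts in both libraries and Mir449c had 0 and 1. The 3 lists together held 12 of 13 tested genes past the threshold with more in replicate 1, beside 25.5% over all tested genes. These lists were chosen with earlier results of these data known, and the count leaves out the other lists, which follow. Genes of a cluster are not independent of each other, so the count is a description and not a test. Mir375 differed in the same direction by less than the 3 sums, 1.65-fold against 3.64-fold, 4.45-fold and 2.64-fold. This did not hold for every gene, as 9 of the 13 tested genes had a larger ratio than Mir375. Mir204 (1.54-fold) and Mir211 (1.14-fold) had a smaller one, and the choroid plexus sum was led by Mir34c (5.98-fold). The part of the cell types of these lists in the level of Mir375 was not tested. In bulk tissue, fewer cells of a type and less RNA in each cell cannot be told apart.

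**Figure D3:**
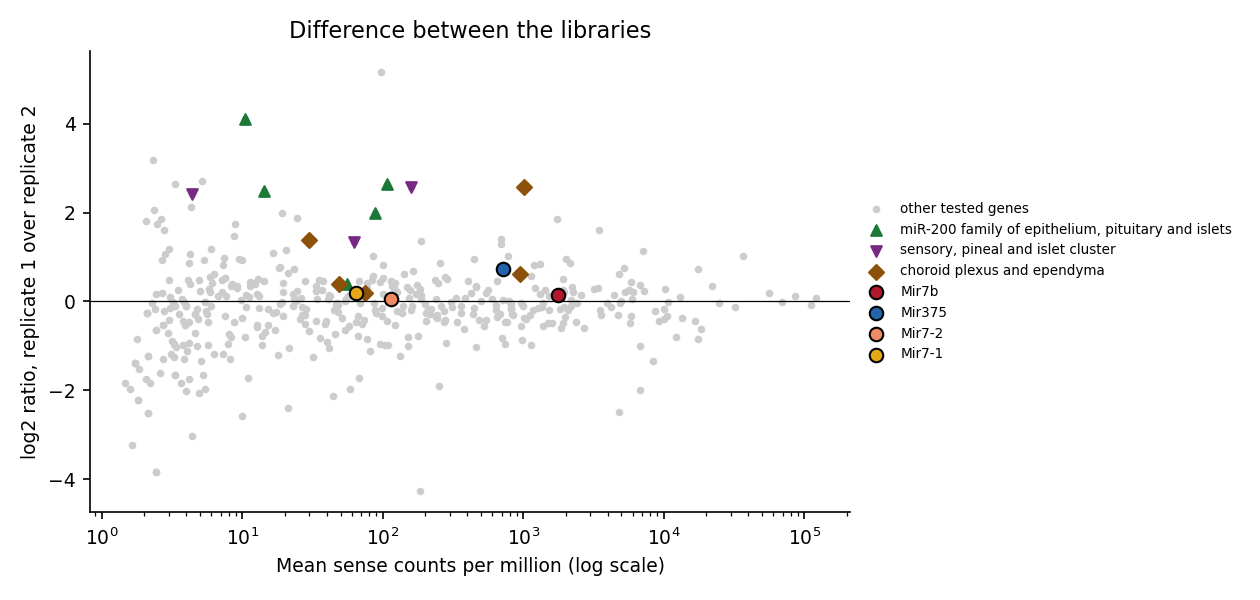
Log2 ratio of replicate 1 over replicate 2 against mean sense CPM (log axis) for the 454 tested genes with counts in both libraries, with the 4 members and 3 marker lists marked. Mir7b, Mir7-1 and Mir7-2 lie near 0, Mir375 lies at 0.73, and 9 of the 13 tested genes of the marker lists lie above it.

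The other lists hold markers of forebrain neurons, exocrine pancreas, red blood cells and liver. Forebrain neuron miRNAs summed to 37581 and 36158 CPM, with 13 of 17 genes at 10 or more counts in each library, and 3 of the 14 tested genes passed with more in replicate 1 and 7 with more in replicate 2, beside 25.5% and 32.9% of all tested genes. They were led by Mir132, an activity-regulated neuronal miRNA, at 21687 and 13106 CPM, Mir128-1 at 4545 and 9069 CPM, and Mir137 at 4757 and 6655 CPM. Mir132 was 1.65-fold higher in replicate 1, as Mir375 was, while Mir128-1 and Mir137 were lower there. A difference of that size was thus not confined to the 3 lists above. Mir124a-1, Mir124a-2 and Mir124a-3, the genes of the main neuronal miRNA, had at most 8 counts each. They are copies by symbol, and reads that match more than 1 copy may be left out of these counts. The level of this miRNA therefore cannot be read from them, and the sum of the list may be incomplete. The exocrine pancreas list was near 0: Mir217 had 4 and 5 counts, Mir216a 4 and 0, and Mir216b 1 and 1. The red blood cell list summed to 70.2 and 78.4 CPM. It was led by Mir451a at 43.4 and 31.8 CPM, which passed with more in replicate 1, followed by Mir486 at 23.9 and 29.5 CPM and by Mir144 at 2.87 and 17.1 CPM, which passed with more in replicate 2. Mir122, the liver miRNA, was at 28.4 and 38.4 CPM. The sum of the 4 miR-7 and miR-375 genes was 2944 and 2393 CPM, above the red blood cell, liver and exocrine pancreas lists in both libraries.

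**Figure D4:**
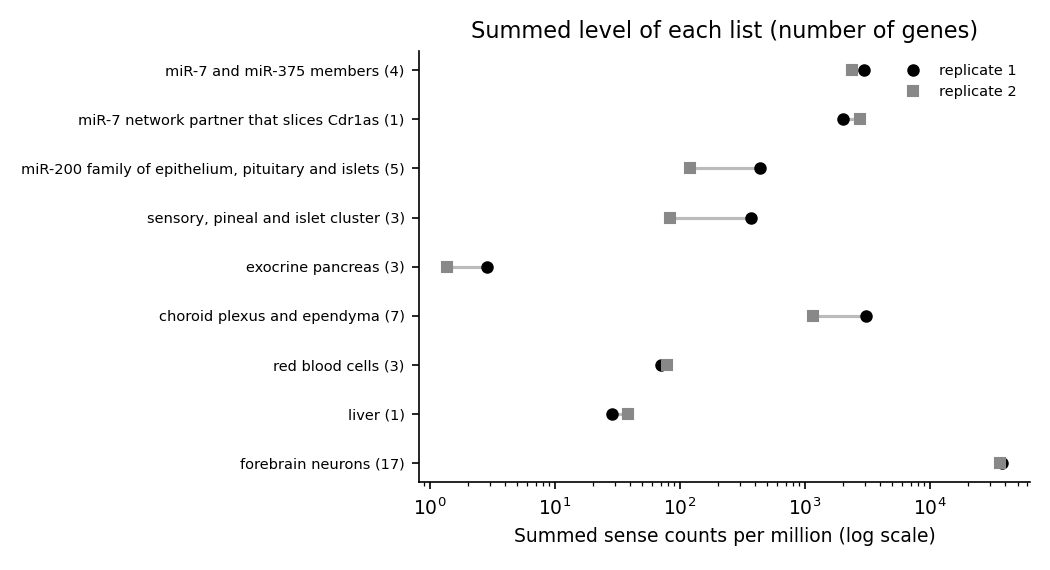
Summed sense CPM on a log axis for each list, with the number of its genes in brackets, circles for replicate 1 and squares for replicate 2. The miR-200, Mir183 cluster and choroid plexus sums are higher in replicate 1, at 434, 367 and 3072 CPM. The forebrain neuron sums, at 37581 and 36158 CPM, nearly coincide, although single genes of that list differ in both directions.

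Mir671, the gene of the miRNA that slices Cdr1as, was near the summed level of the 3 miR-7 genes in replicate 1 and above it in replicate 2. It had 6286 and 12111 counts, or 2004 and 2767 CPM (2386 ± 539, SD, n = 2), at ranks 63 and 51. In contrast to Mir7b it was lower in replicate 1 (ratio 0.725, 95% interval 0.703 to 0.747, exact binomial test, adjusted p = 2.64e-97). Of all tested genes, 32.9% were called in this direction. Its counts were 0.977 times those of the 3 miR-7 genes in replicate 1 and 1.49 times in replicate 2. The miR-7 counts may leave out reads that match both Mir7-1 and Mir7-2, in which case these ratios are overstated. Counts were given by gene, so the arms of Mir671 were not told apart. Mir671 (ENSMUSG00000076387.1, chr5:24592114-24592211, plus strand) lies in an exon of Chpf2, and also in an exon of a Smarcd3 transcript on the other strand.

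The long RNAs of this network were not measured here, and their reference sequences are shown for the matches to miR-7 that they hold. The miR-7 seed match, GTCTTCC, was searched in M21 transcripts on the strand of the RNA concerned. It occurred at 2 places in the longest annotated Cyrano transcript (1700020I14Rik-202, 8300 bases), while 47.4% of transcripts within 10% of its length held at least 1. The places are shown with 20 bases before and 3 after, with the seed match in capitals and, for the later one, the stretch that pairs with the 3′ part of miR-7a-5p in capitals as well.
Bases 742 to 771: cttcaggttttttttttaatGTCTTCCaat
Bases 2932 to 2961: agaACAACAAAATCACcaatGTCTTCCatt
At the later place 13 bases before the seed match were complementary to bases 11 to 23 of miR-7a-5p without a gap, separated from the seed match by 4 bases. At the earlier place no more than 3 bases in a row were. On the strand opposite to the Cdr1 transcript (Cdr1-201, 1554 bases), which is the strand of Cdr1as, the match occurred 79 times, while 21.7% of transcripts within 10% of that length held at least 1 on the opposite strand. Both the miR-7a and the miR-7b 5p arms carry the seed that pairs with these matches. A match is a description of the sequence and not a measured site.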

How the data were processed

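The authors deposited, for each of the 2 libraries, 1 table of raw read counts with 4 summary lines, 2202 miRNA genes and 3 count columns. The tables have no header line, so the unit and the columns were read from their values. The deposited notes name mm10 and annotation M21. The sources used here do not give the aligner, the counter, the trimming or the treatment of multimapping reads. Of the columns, the one with the larger strand total (93.4% and 91.9% of both strands) was taken as sense. Summary lines were left out of library sizes. All 2202 identifiers matched M21. CPM, exact intervals (95%), exact binomial tests and sequence searches used Python 3.11.15, numpy 2.4.6, scipy 1.17.1 and pandas 2.3.3, and figures matplotlib 3.10.9. The scripts were tested on simulated data. TMM factors (edgeR 4.0.16) and size factors (DESeq2 1.42.0, R 4.3.3) served as alternatives. The members and lists were chosen with earlier results of these data known. Named genes were the 4 members, Mir671, up to 3 leading genes of each list, the 3 genes nearest in level, and neighbours within 10000 bp. List genes outside this rule (Mir124a-1, Mir124a-2, Mir124a-3, Mir449b and Mir449c) were named after their values were seen. P-values take counting error alone as their null and do not measure the spread between animals. The labels call the 2 libraries biological replicates.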

Additional observations from a re-analysis of the deposited data

How the results depend on the processing

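The results were recomputed 55 times under alternatives of scaling, strand, count minimum and gene length, and 45 of these kept the direction and the side of the threshold, the level within 1 SD, the place in the order, or the count of calls within 1.5 times. Scaled to all reads, summary lines included, the CPM levels were 582 for Mir7b, 233 for Mir375, 21.3 for Mir7-1, 37.9 for Mir7-2 and 641 for the 3 miR-7 genes, since the denominator is larger. With that library size the log2 ratio between the libraries was 0.027 for Mir7b, no longer past the threshold, and -0.077 for Mir7-2, which turned its sign without passing (exact binomial test, adjusted p = 0.539). Counted without regard to strand, the levels were 1924 CPM for Mir7b, 125 for Mir7-2 and 2119 for the 3 miR-7 genes, again with the same counts over another total. TMM scaling, DESeq2 size factors and other count minimums changed no direction or call of the 4 genes. With 1 library left out no ratio between the libraries can be had, and a level is that of the other library, which lies within 1 SD of a mean of 2 by construction. The spread between the 2 libraries rests on 1 degree of freedom. Of the 4 genes, Mir7-1 and Mir7-2 had the fewest counts, at 217 to 496, and reads that match both copies may be missing from them.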
